A study of Mus musculus with 4 samples.

Results

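The genes for the proteins of the cytosolic ribosome were followed in ATAC-seq of mouse bone marrow, an assay in which a transposase cuts and tags DNA where chromatin is accessible. A gene was taken as a member if the authors had assigned at least 1 interval to it and its symbol was Rpl or Rps with a number (with an optional a, x, y or l), Rplp0, Rplp1, Rplp2 or Rpsa. This gave 82 of the 20811 genes with an assigned interval, and 704 of the 220733 intervals. The cells were LSK cells, that is bone marrow cells sorted as negative for lineage markers and positive for Sca1 and Kit, which hold the haematopoietic stem cells and early progenitors. One group came from p53R248W/+ mice, which carry 1 allele of p53 with a missense change in the DNA-binding domain beside 1 normal allele, and is called R248W here. Its comparison group came from p53+/+ mice and is called WT. Each group had 2 libraries of 50000 cells, and the series asks how mutant p53 acts on transcription in these cells. The labels give no age, sex or strain and do not say that the 2 libraries of a group came from different mice, so the spread between them may be technical.

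A ribosome is built from a small and a large subunit, each made of ribosomal RNA and one copy of most ribosomal proteins. The proteins are needed in nearly equal amounts, their genes are among the most active in a growing cell, and their mRNAs start with a pyrimidine run (the 5′ TOP sequence) through which the mTOR pathway sets their translation. When ribosome assembly fails, free RPL5 and RPL11 bind MDM2, the ubiquitin ligase that keeps p53 low, and p53 then accumulates. In humans, loss of 1 copy of any of several ribosomal protein genes causes Diamond-Blackfan anaemia, a failure of red cell production, and loss of RPS14 accounts for much of the anaemia of the 5q- syndrome.

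The lists held 60385 and 51150 intervals in R248W libraries 1 and 2, and 46720 and 62478 in WT libraries 1 and 2. The highest bin of an interval, which the authors give as a whole number in bins about 32 bases wide, had a median of 62 and 50 in the R248W libraries and 52 and 62 in the WT libraries. R248W 1 and WT 2 thus had the longer lists and the higher signal, and each genotype held 1 library of each kind. Read depth is not given, so the signal of a gene was read as its percentile within its own library, where 100 is the strongest interval. The sort was checked on marker genes. Among 10 genes of stem and progenitor cells, 6 had a start-site interval in all 4 libraries, including Kit, the receptor used in the sort, and Flt3. Among 10 genes of mature lineages, 1 did. Ly6a, which encodes Sca1, had no start-site interval in any library, nor had Gata2, Lmo2 and Tal1. Over the gene or within 1000 bases of it, Gata2, Lmo2 and Tal1 had an interval in all 4 libraries, and Ly6a had none. Of the mature-lineage genes without a start-site interval, Hbb-bt and Ms4a1 also had one there in all 4 libraries, and Cd3e in 1.

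Promoter sequences of the members to which the results below return are shown first. They were read from RefSeq for the build GRCm38.p6, run from 100 bases before the start to 20 bases after it, and are written 5′ to 3′ in the direction of transcription. Capitals mark matches, on either strand, to motifs known from other studies of housekeeping promoters. These were CCGGAAG (the site of GABP and other ETS factors), GGGCGG (SP1 and KLF factors), CCAAT (NFY) and a palindrome of 10 bases around CGCG (the CGCG palindrome). TATAAA was marked on the strand of transcription only, where it lies 40 to 15 bases before the start. Capitals also mark a run of at least 7 pyrimidines that touches the stretch from 5 bases before to 10 bases after the start. A 5′ TOP sequence begins at the start itself, and such a run need not include it. The runs of Rpl4 and Rps27l end before the RefSeq start, and that of Rps12 begins after it.

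The promoters of the strongest large-subunit gene (Rpl37), the strongest paralog (Rpl22l1), the strongest stalk gene (Rplp0) and the weakest member (Rpl4) are set against each other.
Rpl37, chr15:5116513-5116632, plus strand: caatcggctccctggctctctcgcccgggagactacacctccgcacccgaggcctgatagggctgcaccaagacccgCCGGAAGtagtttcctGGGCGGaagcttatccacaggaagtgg
Rpl22l1, chr3:28805408-28805527, plus strand: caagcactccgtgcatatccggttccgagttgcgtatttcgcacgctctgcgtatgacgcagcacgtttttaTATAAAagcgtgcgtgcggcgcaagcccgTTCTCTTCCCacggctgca
Rplp0, chr5:115559367-115559486, plus strand: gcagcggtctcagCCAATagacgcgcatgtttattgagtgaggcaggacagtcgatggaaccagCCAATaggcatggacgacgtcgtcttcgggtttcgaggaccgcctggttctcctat
Rpl4, chr9:64173287-64173406, plus strand: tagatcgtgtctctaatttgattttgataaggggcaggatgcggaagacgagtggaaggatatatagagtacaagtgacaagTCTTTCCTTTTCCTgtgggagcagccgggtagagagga
The 4 windows share no single layout. Rpl37 has an ETS site and an SP1 site close to the start and no long pyrimidine run, Rpl22l1 has a TATA box and a run of 10, Rplp0 has a pair of CCAAT boxes, and Rpl4 has a run of 14 with none of these motifs.

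The promoters of the 2 members with the widest gaps between the genotypes (Rpl31 and Rps12), and of 2 members tied to the p53 response (Rpl11 and Rps27l), follow.
Rpl31, chr1:39367751-39367870, plus strand: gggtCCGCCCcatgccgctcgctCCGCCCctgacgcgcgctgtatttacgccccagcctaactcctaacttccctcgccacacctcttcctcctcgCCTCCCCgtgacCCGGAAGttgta
Rps12, chr10:23787190-23787309, minus strand: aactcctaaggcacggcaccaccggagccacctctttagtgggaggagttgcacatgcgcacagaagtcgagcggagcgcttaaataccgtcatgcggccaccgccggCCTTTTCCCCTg
Rpl11, chr4:136053374-136053493, minus strand: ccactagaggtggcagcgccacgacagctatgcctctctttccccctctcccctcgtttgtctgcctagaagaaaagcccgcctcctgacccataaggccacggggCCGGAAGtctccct
Rps27l, chr9:66945986-66946105, plus strand: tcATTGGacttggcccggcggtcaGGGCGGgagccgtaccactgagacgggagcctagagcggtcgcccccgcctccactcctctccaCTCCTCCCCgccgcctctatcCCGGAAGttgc
The ETS site of Rpl31, Rpl11 and Rps27l lies just after the RefSeq start, and Rps12 has none in this window. The RefSeq start is 22 bases from the authors' start in Rpl11 and 32 bases from it in Rps27l.

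The CGCG palindrome was in 5 members, and 3 of them are shown: Rps19, the gene most often mutated in Diamond-Blackfan anaemia, Rps28, and Rps6, whose protein is the target of S6 kinase.
Rps19, chr7:24884576-24884695, plus strand: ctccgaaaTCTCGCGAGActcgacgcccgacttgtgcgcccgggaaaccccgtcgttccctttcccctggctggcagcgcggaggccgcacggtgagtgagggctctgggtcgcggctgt
Rps28, chr17:33824543-33824662, minus strand: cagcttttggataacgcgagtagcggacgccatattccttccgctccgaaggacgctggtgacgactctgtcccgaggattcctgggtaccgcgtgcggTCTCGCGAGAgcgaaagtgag
Rps6, chr4:86857348-86857467, minus strand: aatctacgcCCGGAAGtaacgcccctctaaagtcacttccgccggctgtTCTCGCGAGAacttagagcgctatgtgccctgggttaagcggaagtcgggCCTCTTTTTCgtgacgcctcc
The palindrome lies near the upstream end of the window in Rps19, about midway in Rps6 and directly at the RefSeq start in Rps28. The RefSeq start is 64 bases from the authors' start in Rps28 and 38 bases from it in Rps19.

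Most ribosomal protein genes were open at their start in every library. A start-site interval, one whose summit lay within 1000 bases of the start, was listed in all 4 libraries for 71 of the 82 members (86.6%). Over all genes with an assigned interval the share was 60.1% (12517 of 20811), over the protein-coding ones 66.5%, and over the genes of the mitochondrial ribosome 94.7% (71 of 75). The median member reached percentile 89.0 and 86.6 in the R248W libraries and 88.2 and 88.8 in the WT libraries. Over all genes with a start-site interval the medians were 86.2 and 84.1 in R248W and 83.2 and 86.3 in WT, and over genes with a CpG island at the start in all 4 libraries they were 88.3 and 86.5 in R248W and 85.6 and 88.3 in WT. The members were therefore close to other CpG island promoters in their middle value. As highest bins, the members' medians were 242 and 151 in R248W and 168 and 234 in WT.

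Weak start-site intervals were not seen among the members. None of the 71 fell below the median of its own library's list in any library, whereas 2197 of the 12517 genes (17.6%) did so in at least 1. The share was 13.5% over genes with a CpG island at the start in all 4 libraries and 8.45% over the mitochondrial ribosomal protein genes. At the other end, 21 members (29.6%) and 3863 of all genes (30.9%) were in the top 10% of all 4 lists, and 1 of 71 members, Rpl37, was in the top 1% of all 4, against 424 of the 12517 genes. Averaged over the libraries, the members ran from percentile 56.9 to 99.6, with quartiles at 81.3 and 93.8, against 68.3 and 93.7 for all genes. These are descriptions of single lists and carry no test.

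**Figure D1:**
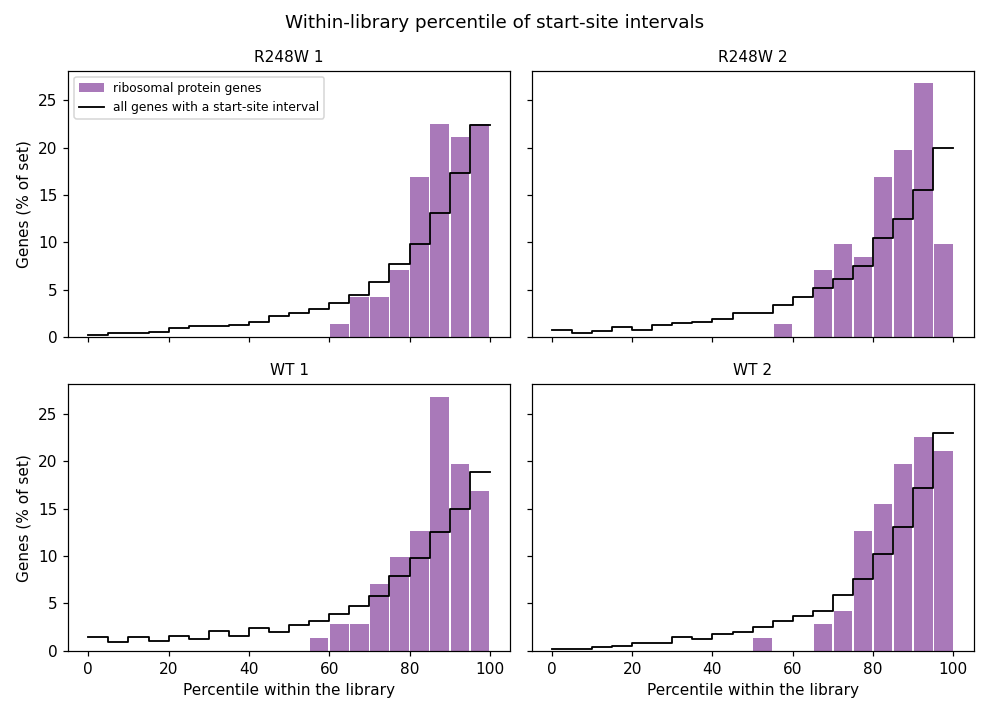
Distribution of the within-library percentile (x axis) of start-site intervals in each library, as the share of each set in bins of 5 points (y axis). Bars are the 71 ribosomal protein genes and the black line is all 12517 genes with a start-site interval in all 4 libraries, members included. The line has a tail below percentile 50 in each library, and the bars do not.

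Large-subunit genes stood at both ends of the range. Rpl37, a small zinc-finger protein of the large subunit, had the highest signal, with a highest bin of 766 and 468 in R248W and 512 and 810 in WT. Its percentile stayed between 99.4 and 99.7, near the upper bound of the scale. Rpl30 had 553 and 318 in R248W against 339 and 464 in WT. In both genes, as in 68 of the 71 members (95.8%, against 92.8% of all genes), R248W 1 and WT 2 both exceeded the other two libraries, so the raw signal followed the library and not the genotype. Rpl27a (432 and 238 in R248W, 298 and 514 in WT) and Rpl27 (478 and 228 in R248W, 314 and 449 in WT), which encode different proteins despite their names, both averaged percentile 96.5.

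The weakest was Rpl4, whose protein reaches with a long loop into the wall of the exit tunnel. It had a highest bin of 83 and 60 in R248W against 62 and 62 in WT, and a mean percentile of 56.9. Rpl6 followed with 100 and 71 in R248W against 69 and 92 in WT. Rpl23 had 103 and 85 in R248W against 74 and 117 in WT, and Rpl19 had 118 and 73 in R248W against 95 and 93 in WT. By highest bin the genotypes overlapped in all 4 genes, and in Rpl4 and Rpl19 the WT values lay between the R248W values. By percentile Rpl4 did not overlap, with 61.3 and 58.3 in R248W against 58.1 and 50.1 in WT, and the others did. Ranked among the start-site regions called in all 4 libraries, as described below, Rpl4 overlapped, at 17.6 and 18.6 in R248W against 21.8 and 10.5 in WT. Over all 38 large-subunit genes with a start-site interval in every library, the median of the mean percentile was 84.6.

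Small-subunit genes were somewhat higher and more even, with a median of 89.9 and a range from 70.6 to 97.1 over 27 genes. The strongest was Rps14, with 473 and 315 in R248W against 290 and 430 in WT. The weakest was Rps4x, which lies on the X chromosome, with 119 and 83 in R248W against 70 and 128 in WT. The 3 stalk proteins recruit translation factors to the ribosome. Rplp0, the stalk base, had 491 and 365 in R248W against 280 and 518 in WT, while its 2 acidic partners were lower. Rplp1 had 242 and 146 in R248W against 171 and 227 in WT, and Rplp2 had 273 and 181 in R248W against 187 and 230 in WT.

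Of 7 listed paralogs, 3 had a start-site interval in all 4 libraries. Rpl22l1, the paralog of Rpl22, had 492 and 325 in R248W against 307 and 551 in WT, a mean percentile of 97.8, while Rpl22 itself averaged 94.5. Rps27l, which in human cells is induced by p53, had 258 and 171 in R248W against 195 and 235 in WT. Rpl7l1 was low, with 106 and 82 in R248W against 85 and 123 in WT. Rpl3l, the form of Rpl3 used in striated muscle, had no start-site interval in any library, and no interval was assigned to Rpl10l, Rpl39l or Rps4l. Of the ribosomal protein genes whose names lie outside the symbol rule, Rpl36al averaged percentile 97.7, and Rack1 (listed as Gnb2l1) 89.9, and Fau had no start-site interval.

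**Figure D2:**
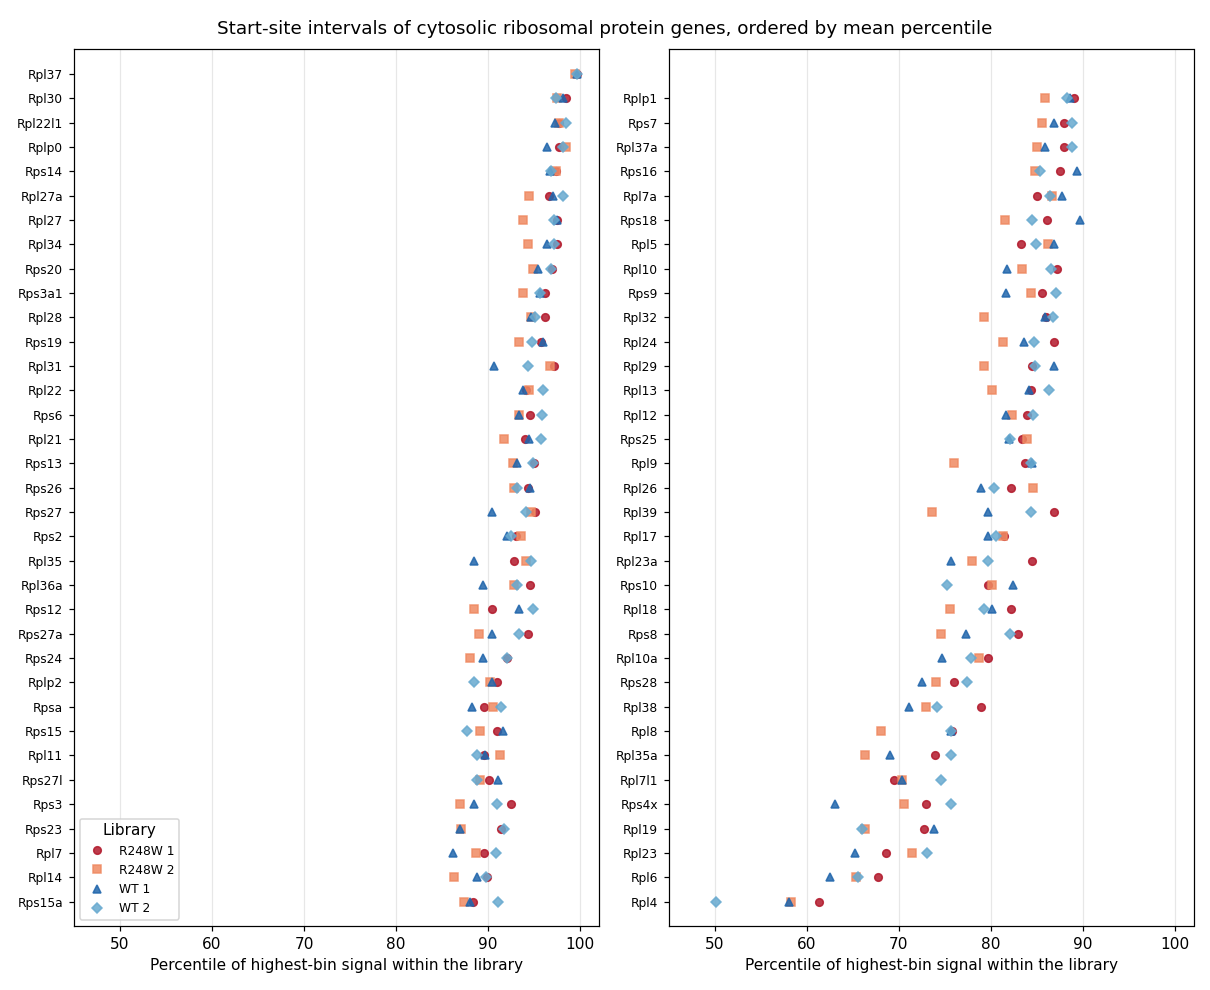
Percentile of the highest-bin signal within each library (x axis) for 69 of the 71 members with a start-site interval in all 4 libraries, ordered from Rpl37 down to Rpl4 by their mean. Each gene has 1 point for each library, red for R248W and blue for WT. The 4 points of a gene lie within 5 percentile points of each other in 41 of all 71 genes and more than 10 apart in 4.

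The start-site intervals of the members had a common form. A CpG island was assigned in all 4 libraries to 69 of the 71 (97.2%). The share was 81.9% over all genes and also 97.2% over the mitochondrial ribosomal protein genes. The exceptions among the members, Rpl4 and Rpl7l1, are both among the 6 weakest. The median length of the members' intervals was 1690 bases, against 1770 for all genes. The summit lay at a median of 54 bases upstream of the start, against 39 bases for all genes, taken as the mean position over the libraries. In 45 members (63.4%) it lay between the start and 200 bases upstream of it, against 50.2% of all genes, and in 4 members (5.63%) it lay more than 250 bases away, against 19.3%. In Rps27 the summit was called at 80 bases upstream in each of the 4 libraries.

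**Figure D3:**
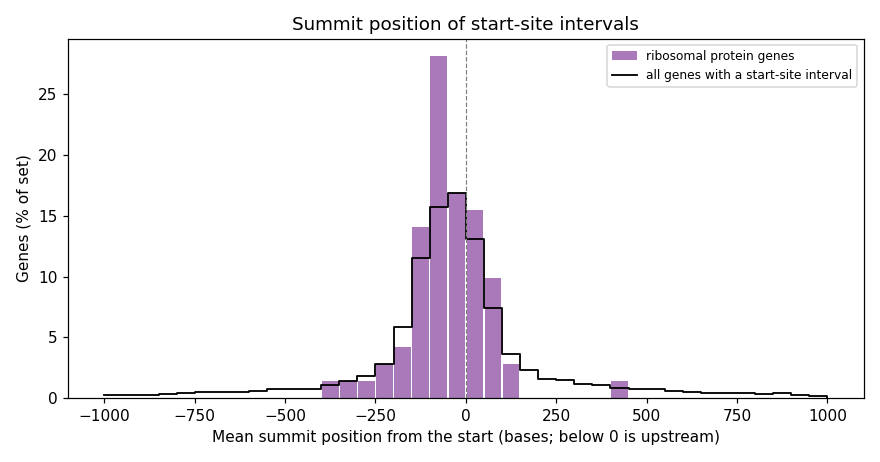
Position of the summit relative to the start of the gene (x axis, bases, negative values upstream), averaged over the 4 libraries, as the share of each set in bins of 50 bases (y axis). Bars are the 71 members and the black line is all 12517 genes. The members are gathered in the 200 bases upstream of the start.

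Another gene started within the same window in 12 of the 71 members (16.9%, against 21.5% of genes with a start-site interval), small nucleolar RNA genes not counted. In such a case the signal cannot be assigned to one of the genes. The shared starts included Rpl4 with Zwilch, Rps28 with Ndufa7 and Rpl35a with Iqcg. Small nucleolar RNAs, which guide the modification of ribosomal RNA and lie in introns of many ribosomal protein genes, started in the window of 9 members. The other intervals assigned to members numbered 110 and 99 in R248W and 95 and 119 in WT, with a median percentile of 66.2 and 64.2 in R248W and 64.2 and 64.5 in WT. Of these, 44 and 41 in R248W and 42 and 45 in WT lay at the start of another gene.

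The other 11 members lacked a start-site interval in at least 1 library. They included Rpl3, Rpl13a, Rpl36, Rpl41, Rps21 and Rps29, which all encode standard parts of the ribosome, the paralog Rpl3l, the pseudogene Rps3a3 and Rps12l2. Rpl36 was the only one of the 11 with a start-site interval in any library, in R248W 2, with a highest bin of 113 at percentile 79.8. Rpl13a, Rpl41, Rps21 and Rps29 had no interval of any library, whichever gene it was assigned to, over the gene or within 1000 bases of it. RefSeq lists 8 more genes with such a symbol to which no interval was assigned. They are the standard gene Rpl15, which had no interval within that distance either, the paralogs Rpl10l, Rpl32l and Rpl39l, and 4 pseudogenes. The nearest interval assigned to Rps29 was 9454 bases away and that to Rps21 5891 bases away. Rps29 and Rpl15 are Diamond-Blackfan genes in humans. An unlisted start is not a measurement of closed chromatin.

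Promoter windows (250 bases before to 50 after the start) were found in RefSeq for 60 of the 82 members. The ETS motif CCGGAAG was in 24 of the 60 (40.0%), against 9.26% of all 27025 windows and 18.8% of the windows of genes with a start-site interval in all 4 libraries. In the genes of the mitochondrial ribosome it was in 34.8%. A run of at least 7 pyrimidines touching the stretch around the start was in 27 of the 60 (45.0%). The share was 16.3% of all windows, 15.7% of those with a start-site interval, and 15.2% of the mitochondrial ribosomal protein genes. These runs were not checked to be 5′ TOP sequences. The CGCG palindrome was in 5 members (8.33%; Rpl12, Rpl26, Rps6, Rps19 and Rps28), against 0.507% of all windows and 1.1% of those with a start-site interval, and in 0 of 66 windows of the mitochondrial set. Both strands were searched, except for TATAAA and the pyrimidine run, which were read on the strand of transcription only. Each motif was scored as present or absent in a window, also where it overlapped another motif.

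The cyclic AMP element TGACGTCA was in 5 members (8.33%), against 1.86% of all windows and 3.47% of those with a start-site interval. The YY1 motif AAGATGGC was also in 5 (8.33%), against 2.89% and 4.72%, and in 12 of 66 mitochondrial ribosomal protein genes (18.2%). GGGCGG was in 60.0% of the members, above the 36.2% of all windows and below the 67.6% of those with a start-site interval. The NRF1 motif was in 8.33%, against 4.81% and 10.7%, and the E-box CACGTG, the core bound by MYC, was in 8.33%, against 7.27% and 10.7%. CCAAT was in 31.7%, against 37.9% and 38.6%. TATAAA in its usual place was in 1 member, Rpl22l1 (1.67%), against 2.35% and 0.968%. A p53 half-site was matched in 3 members, Rps27, Rps21 and Rpl35a (5.0%), against 8.33% and 6.33%. Members with the ETS motif had a median percentile of 89.9, against 86.8 for members without it. Members with the pyrimidine run had 89.8, against 86.9 for members without it, and members with GGGCGG 89.7, against 85.4. The order was the reverse for several rarer motifs. It was 79.9 with and 89.0 without the YY1 motif (4 and 52 genes), 83.7 and 89.3 for the cyclic AMP element (5 and 51), 83.1 and 88.7 for the CGCG palindrome (5 and 51) and 79.2 and 89.0 for the E-box (4 and 52). It was 86.9 and 88.7 for the NRF1 motif and 82.4 and 88.7 for the p53 half-site.

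**Figure D4:**
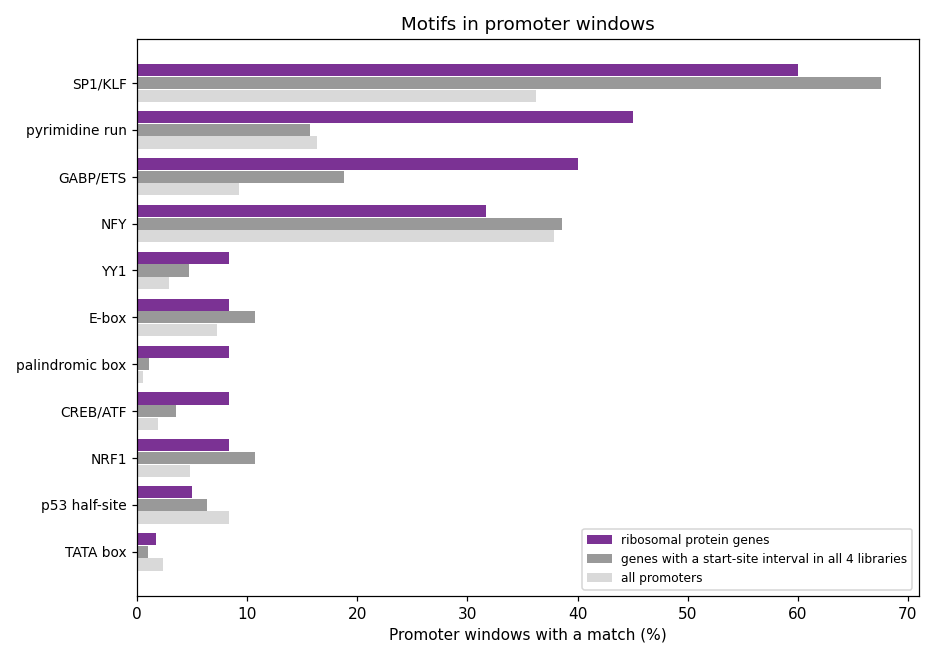
Share of promoter windows with a match (x axis, %) for each motif (y axis), in the 60 ribosomal protein genes with a window, in the 9088 windows of genes with a start-site interval in all 4 libraries, and in all 27025 windows. The palindromic box is the CGCG palindrome. The bars of the members are the longest of the 3 sets for the pyrimidine run, the ETS motif, the palindromic box, the cyclic AMP element (CREB/ATF) and YY1.

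Between the genotypes, the members as a list shifted little in their median, with more members lower than higher in R248W, and 2 single genes stood out. To compare libraries of unequal signal, the 11174 start-site regions called in all 4 libraries were ranked within each library, so that each rank is a percentile in a list of the same length. The members' median rank was 59.1 and 57.6 in R248W and 63.6 and 58.1 in WT. The difference between the genotype means, R248W minus WT, had a median of -1.02 points and a range from -14.84 to 14.29, with an SD of 4.43 over the 71 members. Over all shared regions the median was 0.04 and the SD 4.49. The difference was below 0 in 46 members and above 0 in 25, against 5522 and 5650 of all shared regions. In the mitochondrial ribosomal protein genes it was below 0 in 45 regions and above 0 in 25. The median size of the difference was 2.47 points, while the 2 R248W libraries differed from each other by a median of 4.33 points and the 2 WT libraries by 4.03. A difference of means averages over libraries and is smaller for that alone.

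In 6 members (8.45%) both R248W ranks lay above both WT ranks, against 15.5% of all shared regions. In 15 members (21.1%) both lay below, against 16.6% of all. In the other 50 the genotypes overlapped. The 21 without overlap are 29.6% of the members, close to the 32.1% of all regions. With 2 libraries per genotype the smallest two-sided exact permutation p is 0.333, and no single member was tested. LSK cells are a mixture, and a change in the share of a cell type cannot be told apart from a change within cells. The 15 lower members were Rps12, Rps15a, Rps6, Rps7, Rps28, Rpl7l1, Rpl9, Rpl13, Rpl21, Rpl27a, Rpl29, Rpl32, Rpl35a, Rpl37 and Rpl37a. From the mean-bin signal in place of the highest bin, 9 members lay above and 9 below, so that the excess of lower members was lost. Of all regions, 15.5% lay above and 15.4% below by that signal.

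Rps12 had the widest gap downward. Its protein sits at the head of the small subunit, and in Drosophila it is needed for the elimination of cells with other ribosomal protein mutations by their neighbours. Its highest bin was 263 and 166 in R248W against 222 and 356 in WT, and its rank was 63.3 and 62.2 in R248W against 77.2 and 78.0 in WT. The replicates of each genotype lay within about 1 point of each other, and the gap between the nearest libraries of the 2 genotypes, R248W minus WT, was -13.84 points. Of the 11174 regions, 4 had a gap in this direction at least as wide. By the mean-bin signal the difference was smaller, -7.45 points in place of -14.84, and the mean bin was 59.9 and 48.1 in R248W against 48.8 and 72.5 in WT.

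Rpl31 had the widest gap upward. It encodes a protein near the exit of the peptide tunnel and is a rare Diamond-Blackfan gene in humans. Its highest bin was 454 and 290 in R248W against 189 and 340 in WT, and its rank was 86.9 and 87.3 in R248W against 69.5 and 76.0 in WT. The R248W libraries were alike, the WT libraries differed by more, and the gap was 10.82 points, with 10 of the 11174 regions at least as wide in this direction. By the mean-bin signal the difference was 15.8 points, close to the 14.29 of the highest bin. The mean bin itself was 74.7 and 75.1 in R248W against 42.8 and 74.3 in WT, so that WT 2 came close to both R248W libraries. Both genes were picked here for their gaps, so their values are a description. Within the pair of longer lists the highest bin was 454 in R248W 1 against 340 in WT 2 for Rpl31, and 263 against 356 for Rps12. Within the pair of shorter lists it was 290 in R248W 2 against 189 in WT 1 for Rpl31, and 166 against 222 for Rps12.

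The next gaps were narrower. Rps27 ranked at 79.3 and 80.3 in R248W against 69.1 and 75.3 in WT, and 312 regions had a gap as wide. Rpl36a ranked at 76.9 and 74.3 in R248W against 66.5 and 71.7 in WT, and Rpl23a at 48.0 and 40.0 in R248W against 39.1 and 37.7 in WT. Of these, Rpl23a had a gap of less than 1 point and is barely separate. On the lower side, Rpl21 ranked at 75.4 and 71.0 in R248W against 80.6 and 81.2 in WT, a difference of -7.70 points that shrank to -2.75 with the mean-bin signal, where the genotypes were no longer separate. Rpl13 ranked at 47.6 and 43.7 in R248W against 54.0 and 51.8 in WT. Rpl27a ranked at 85.1 and 79.3 in R248W against 89.1 and 91.1 in WT, a difference of -7.89 points that turned to 1.51 with the mean-bin signal.

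**Figure D5:**
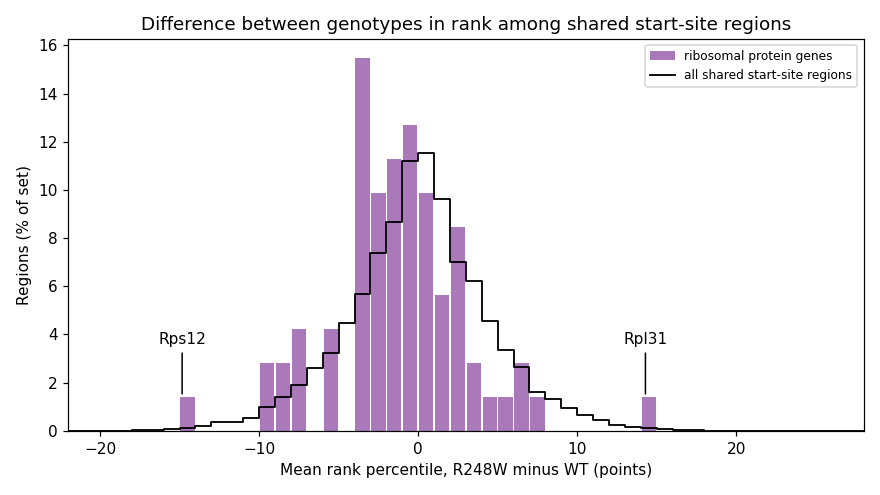
Difference in mean rank, R248W minus WT (x axis, percentile points), of the 11174 shared start-site regions, as the share of each set in bins of 1 point (y axis). Bars are the 71 members and the black line is all regions. Rps12 at -14.84 and Rpl31 at 14.29 lie apart from the other members, which run within about 10 points of 0.

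Among 8 members whose proteins act on MDM2 or p53, 6 had ranks that overlapped between the genotypes and 2 did not, where 32.1% of all shared regions do not. Rpl5 had a highest bin of 181 and 148 in R248W against 157 and 190 in WT. Rpl11, its partner in binding MDM2, had 250 and 193 in R248W against 181 and 235 in WT. Both were close to the middle of the members, at mean percentiles of 85.3 and 89.9. Rpl26, which binds p53 mRNA and raises its translation, had 172 and 138 in R248W against 113 and 154 in WT. Rpl23, an MDM2 binder, is the weak promoter described above. Rps3 had 303 and 153 in R248W against 170 and 266 in WT. RPS3 also acts in DNA repair. Rps7, a further MDM2 binder, ranked lower in R248W, at 56.2 and 55.4 against 60.6 and 58.3 in WT, which was not so by the mean-bin signal, while Rps27 ranked higher. The highest bin of Rps27, whose protein also binds MDM2, was 372 and 244 in R248W against 187 and 334 in WT. Rps27l ranked at 62.4 and 63.8 in R248W and at 71.0 and 58.3 in WT, with the R248W libraries between the WT libraries.

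Of 20 genes of Diamond-Blackfan anaemia and the 5q- syndrome, 18 had a start-site interval in all 4 libraries, at a median percentile of 89.3. In 3 of them (Rpl31, Rps27 and Rps14) the R248W ranks lay above and in 4 (Rps7, Rps15a, Rps28 and Rpl35a) below the WT ranks, where 15.5% of all regions lie above and 16.6% below. Of these 4, Rps15a alone also lay below by the mean-bin signal, and the gap of Rps28 was -0.03 points. Rps14, the 5q- gene, ranked at 88.3 and 89.9 in R248W against 88.1 and 85.8 in WT, a gap of 0.18 points. Rps19 had a highest bin of 394 and 221 in R248W against 272 and 352 in WT, and its percentiles of 95.7 and 93.4 in R248W overlapped those of 96.0 and 94.8 in WT.

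Beyond the members, biogenesis factors and a list of translation factors and other 5′ TOP genes had higher medians than the members. RNA polymerase I genes had a lower one. The median of the mean percentile was 84.8 over all genes with a start-site interval in all 4 libraries and 88.7 over the members. Of 24 biogenesis factors, 21 had such an interval, with a median percentile of 92.3. The strongest were Rrs1 (99.6), which acts in assembly of the large subunit, Nop14 (99.5), which acts in the small one, and Ncl (99.3), nucleolin. Of 14 translation factors and other genes with 5′ TOP mRNAs, 11 had one, also with a median of 92.3, led by Nap1l1 (98.2) and Pabpc1 (98.1). Of 12 genes of RNA polymerase I, the enzyme of ribosomal RNA, 11 had one, with a lower median of 78.2 and with Polr1d (98.6) on top. In the ranks, 1 biogenesis factor lay above and 5 below in R248W, and 2 polymerase genes above and 4 below. Of the 5′ TOP list, 0 genes lay above and 4 below. For the mitochondrial ribosome it was 4 above (5.71%) and 19 below (27.1%) of 70 regions. Start-site regions with a CpG island as a whole gave 15.5% above and 16.4% below.

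Around the members, few regions were called in one genotype only. The 82 members were assigned 196 merged regions, of which 159 (81.1%) were called in all 4 libraries, against 58.0% of all 69759. Both R248W libraries and no WT library called 2 of the 196, against 1.23% of all regions. One is near Rpl37a (mm10, chr1:72716605-72717734), 5924 bases from its start, with a highest bin of 51 and 43, and the other near Rpl27a (chr7:109510647-109511529), 8155 bases away, with 27 and 21. The second lies at percentile 8.77 and 2.23 of the R248W lists, near the lower end of what was called. No member region was called in both WT libraries and no R248W library, against 0.827% of all regions. No start-site interval of a member was among these regions.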

How the data were processed

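ATAC-seq was made from sorted LSK cells of p53R248W/+ and p53+/+ mice, 2 libraries each. The submitters' processing notes name MACS 1.4.2 and mm10. The aligner, filters, any read-end shift, the depth and the scaling of the signal are not stated in the sources used here. Intervals were called per library by the authors, and the deposited signal, per the file headers the highest bin and the mean bin of each interval, was used as deposited. Read counts are not part of the table used, so no counting interval is given.

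With Python 3.11.15, pandas 2.3.3 and numpy 2.4.6, signal was turned into percentiles within a library. A start-site interval had its summit within 1000 bases of the gene's start, by the authors' distance. Intervals sharing at least 1 base were merged into regions across libraries. Ranks were compared only among regions called in all 4 libraries, without a test. Ranking and region steps were tested on simulated data. Promoter windows came from RefSeq (GRCm38.p6), matched by symbol for 60 of 82 members, and 57 of these began within 50 bases of the authors' start. The other 22 have no window here.

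Members and gene lists were chosen with earlier results of these data known. Named genes were the 8 strongest and 6 weakest members, those lacking a start-site interval, those with a region of one genotype, the 4 widest gaps each way, all genes of the p53 and MDM2 list, and the strongest of each other list. Some genes that this rule names are not reported here. Rps6, Rps28, Rpl22, Rplp1, Rplp2 and the full lists of lower members and motif holders were named after their values were seen. The search for intervals of any gene over the RefSeq extents of members and marker genes was also added then. Alternatives covered the start window, signal measure, ranking list, list length, overlap, core gene set, each library left out and the replicate number as a block.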

Additional observations from a re-analysis of the deposited data

How the results depend on the processing

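Of 145 alternative values, 108 kept their direction and stayed within the limits set for a change (1.5 times for a count, 1 SD of the replicates for a value), 36 moved and 1 reversed, the rank difference of Rpl27a (1.51 with the mean-bin signal, against -7.89). Some of the 108 were fixed in advance, so their number does not measure robustness. Limiting the set to core genes cannot alter the rank of a gene. Genes picked for ranks without overlap could hardly change sign when 1 library was left out. The number of members open at the start in all 4 libraries stayed within those limits throughout. For the shorter lists this was settled beforehand, since none of these members fell below the median of its list. Leaving out a library could not lower the number. The median percentile, 88.7, was 84.8 when ranked among regions called in all 4 libraries and 64.0 among start-site intervals, lists with fewer weak intervals. Members with R248W below WT numbered 15 (against 16.6% of all regions), and 9 with the mean-bin signal (against 15.4%). With the replicate number as a block (each R248W library against the WT library of the same number), 35 members did not overlap, 10 above and 25 below, against 25.4% above and 24.9% below of all regions; the numbers are not known to pair the libraries, whose same-numbered deviations correlated at 0.07 over 11174 regions. Within lists of like length, added after seeing the data, 31 did not overlap, 12 above and 19 below, against 23.7% above and 24.9% below of all regions. Leaving out 1 library leaves 1 against 2 and raises all counts. Then 41 to 49 members did not overlap, against 61.8% to 70.8% of all regions. Of the members, 13 to 23 lay above, against 30.8% to 34.8% of all regions, and 22 to 36 below, against 31.0% to 36.0%. Member regions of one genotype then numbered 4 to 9 (2 to 7 R248W-only, against 1.6% to 10.3% of all regions, and 1 to 7 WT-only, against 1.41% to 8.18%), the most without WT 1 (7 WT-only) and without WT 2 (7 R248W-only). With lists limited to equal number it was 1 R248W-only and 0 WT-only, against 1.49% and 1.39% of all regions. In the better 50% of each list it was 1 R248W-only and 2 WT-only, against 1.07% and 0.723% of all regions. Rps12 and Rpl31 kept their sign in each alternative run, with -6.61 and 5.52 among all regions called in all 4 libraries. Both were picked for their gaps, so most of these runs could hardly have changed the sign. The kept sign is therefore a description and no support. Depth is unknown, so its limit on unlisted starts cannot be stated.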
